A study of Mirounga angustirostris with 8 samples.

Results

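The genes examined here code for enzymes that build and break down muscle glycogen: PGM1, UGP2, GYG1, GYS1 and GBE1 for synthesis, and PYGM, PHKA1, PHKB and PHKG1 for breakdown. They were picked by gene symbol from the deposited table of read counts, which holds all 9 of them among 24349 entries, and all 9 passed the filter on low counts together with 14312 genes in all. RNA came from longissimus dorsi muscle, a long muscle of the back, of wild adult female northern elephant seals (NES, Mirounga angustirostris) sampled around the annual molt, when the seals fast on land and move little. The 4 pre-molt libraries (seals 5572, 5842, 6762 and C497, early molt in the labels) came from biopsies taken at most 5 days after the seal reached the beach, and the 4 post-molt libraries (seals 4448, 5572, 9678 and X410, late molt) from later biopsies. Over all seals biopsied again, which are not these 4 alone, the mean interval from the first biopsy was 34 days. All seals were sedated for the biopsy, no animal that kept feeding or stayed active was sampled, and time ashore, fasting, inactivity and molt therefore cannot be told apart. The question was how muscle gene expression differed between early and late molt. Seal 5572 alone gave a library at each time, and the comparison was therefore unpaired.

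Glycogen is the branched glucose store that a muscle fiber draws on for fast ATP supply. Phosphoglucomutase (PGM1) turns glucose 6-phosphate into glucose 1-phosphate, UDP-glucose pyrophosphorylase (UGP2) activates it to UDP-glucose, glycogenin (GYG1) primes a new particle by adding glucose to itself, glycogen synthase (GYS1) lengthens the chains and the branching enzyme (GBE1) adds branch points. Glycogen phosphorylase (PYGM) removes glucose units from the chain ends and is switched on by phosphorylase kinase, a complex of the regulatory subunits PHKA1 and PHKB, the catalytic subunit PHKG1 and calmodulin.

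In post-molt muscle the genes for the priming enzyme GYG1, the synthase GYS1 and UGP2 had higher mean levels than in pre-molt muscle, by 1.56-, 1.43- and 1.38-fold. PGM1, the enzyme shared by both directions of the pathway, and PHKA1, the regulatory alpha subunit of phosphorylase kinase, had lower means, at 0.647 and 0.712 of the pre-molt level. PYGM, the phosphorylase itself, stood at 0.970 of its pre-molt level, with a 95% interval for the log2 fold change from -0.55 to 0.47. None of the 9 genes passed the edgeR quasi-likelihood test at an adjusted p under 0.05 with 4 libraries per group, against 0.349% of all genes tested. At an unadjusted p under 0.05, 3 of the 9 were higher (UGP2, GYG1 and GYS1; 5.20% of all genes tested) and 2 were lower (PGM1 and PHKA1; 6.22%). DESeq2, the tool the study used, called GYG1 alone among the 9 genes at an adjusted p under 0.05 (log2 fold change 0.64, adjusted p = 0.0305). The study's methods add a cut-off of 1 in log2 fold change in either direction, which GYG1 did not reach. Of the genes to which it gave an adjusted p, DESeq2 called 3.35% higher and 3.16% lower. The groups did not overlap in 3 genes. GYG1 and GYS1 lay higher in all 4 post-molt libraries than in any pre-molt library, as did 4.05% of all genes tested. PHKA1 lay lower in all 4, as did 5.11%. The median log2 fold change (post-molt over pre-molt) was 0.30 over the 9 genes and -0.04 over all genes tested. Because the genes were proposed with results of these data known, the counts and the median describe the list and were not tested.

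**Figure D1:**
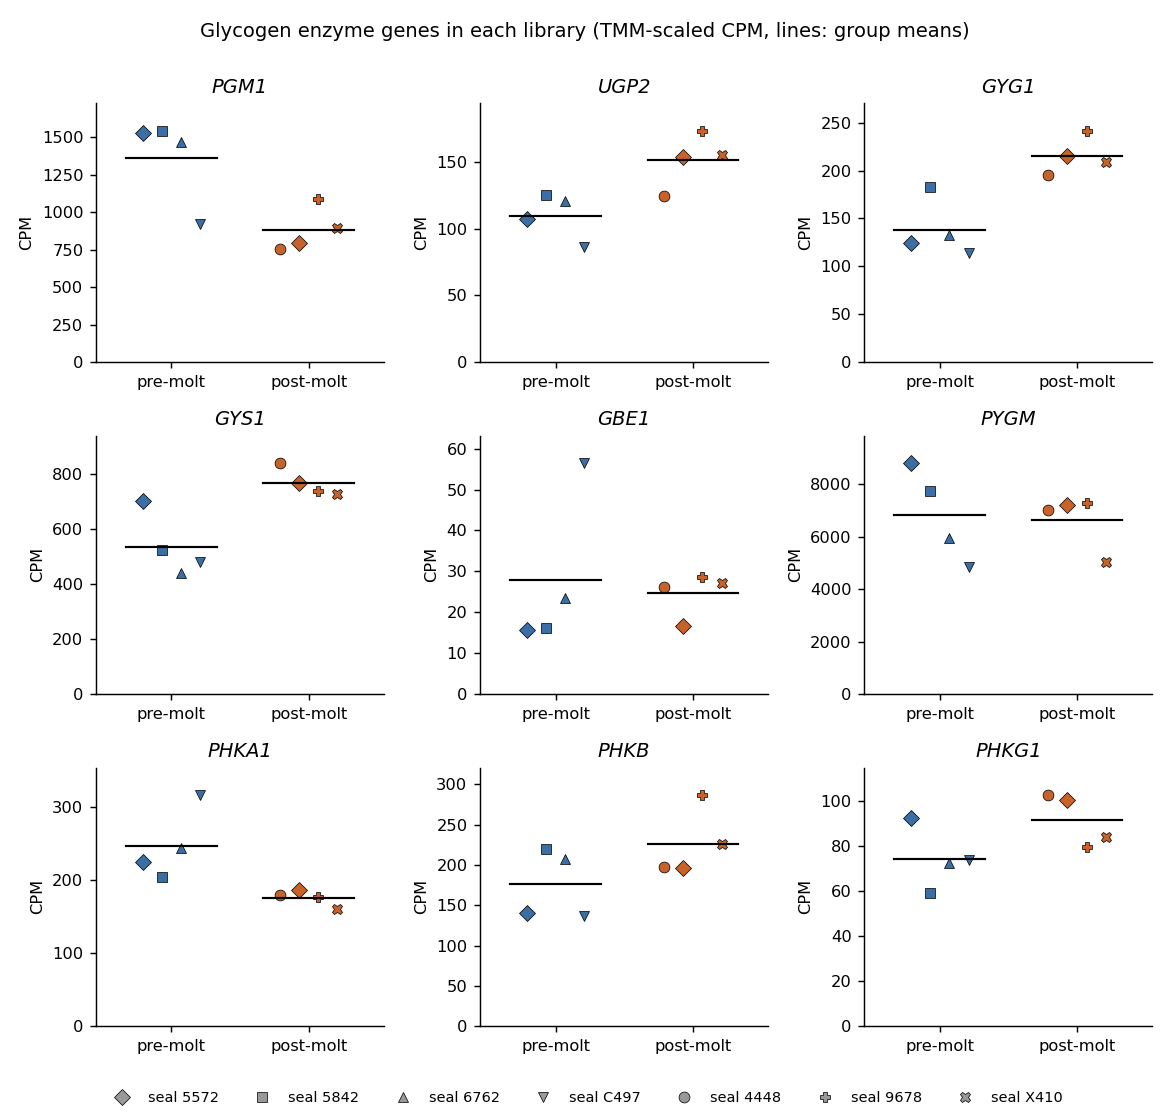
TMM-scaled CPM (reads of a gene per 10⁶ reads, vertical axes from 0) of the 9 genes in the 4 pre-molt (blue) and 4 post-molt (orange) libraries; each symbol is 1 seal and black lines are group means. The groups are apart in GYG1, GYS1 and PHKA1, and pre-molt C497 stands alone at 919 CPM in PGM1 and at 56.4 CPM in GBE1.

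Levels are CPM after TMM scaling, a correction for library size and composition. They are not divided by transcript length, so a level can be compared between libraries but not between genes. Counts per library totalled 37897904 to 56137977 pre-molt and 30769570 to 61216192 post-molt. Of the genes tested, 56 to 1119 had no read in a pre-molt library and 3 to 2116 in a post-molt library, most in post-molt 9678. The study had set aside libraries of poor RNA quality and kept those richest in unique reads, so the groups are a selection from the biopsies taken. In bulk muscle, fewer cells of a type and less RNA per cell cannot be told apart.

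Among the synthesis genes, GYG1 had the largest shift upward. Pre-molt levels were 124 CPM in seal 5572, 182 in 5842, 132 in 6762 and 114 in C497, and post-molt levels were 195 CPM in 4448, 215 in 5572, 241 in 9678 and 209 in X410. The highest pre-molt library, 5842, was still below the lowest post-molt library, and in seal 5572 the post-molt biopsy was 0.80 log2 units above the pre-molt one. Group means were 138 ± 30.3 and 215 ± 19.4 CPM (SD, n = 4 each), a log2 fold change of 0.64 ± 0.20 (SE), with edgeR adjusted p = 0.184.

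GYS1, the chain-lengthening synthase of muscle, was at 701 CPM in pre-molt 5572, 523 in 5842, 438 in 6762 and 480 in C497. In the post-molt libraries it was at 839 CPM in 4448, 765 in 5572, 737 in 9678 and 727 in X410. The post-molt libraries lay close together, and pre-molt 5572 was near them, so that seal 5572 differed by 0.13 log2 units between its biopsies. The means were 536 ± 116 and 767 ± 50.6 CPM, with a log2 fold change of 0.52 ± 0.20 (edgeR adjusted p = 0.313, DESeq2 adjusted p = 0.0538).

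UGP2, which makes the UDP-glucose that both glycogenin and the synthase use, ranged from 86.1 to 125 CPM pre-molt and from 124 to 173 CPM post-molt. Post-molt 4448 lay just under pre-molt 5842, and otherwise the groups were apart. The log2 fold change was 0.47 ± 0.19 (adjusted p = 0.348), from means of 110 ± 17.4 to 151 ± 20.3 CPM.

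PGM1 went the other way. Pre-molt levels were 1528 CPM in seal 5572, 1542 in 5842, 1472 in 6762 and 919 in C497, and post-molt levels were 754 CPM in 4448, 795 in 5572, 1087 in 9678 and 897 in X410. Pre-molt C497 lay among the post-molt libraries, whereas the other 3 pre-molt libraries lay above all of them. Means were 1365 ± 299 and 883 ± 148 CPM, a log2 fold change of -0.63 ± 0.22 (edgeR adjusted p = 0.263, DESeq2 adjusted p = 0.0590), and without C497 it was -0.78 (edgeR adjusted p = 0.120). In seal 5572 the difference was -0.94 log2 units.

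GBE1, the branching enzyme, was at 15.7, 16.1 and 23.5 CPM in pre-molt 5572, 5842 and 6762 and at 56.4 CPM in C497, and at 16.7 to 28.6 CPM post-molt. The post-molt libraries all lay inside the pre-molt range, whose top was C497 alone. The log2 fold change was -0.18 ± 0.38 (adjusted p = 0.927), and without C497 it was 0.43 (adjusted p = 0.651), so its sign rests on that library. The 95% interval ran from -1.01 to 0.65.

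**Figure D2:**
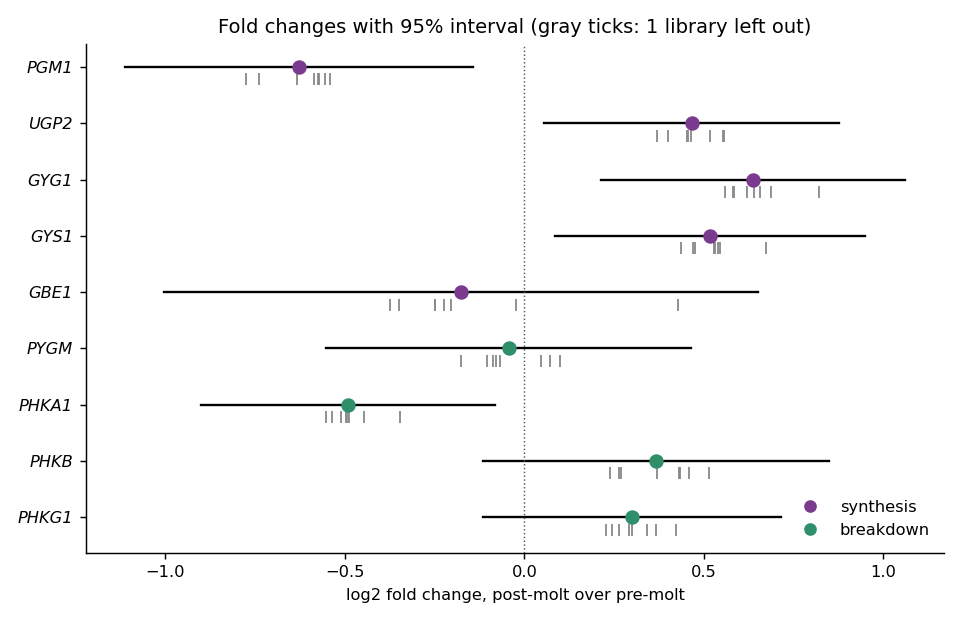
Log2 fold change of each gene (post-molt over pre-molt, horizontal axis) from edgeR with its 95% interval as a line, colored by role; gray ticks are the 8 values with 1 library left out. The intervals of PGM1, UGP2, GYG1, GYS1 and PHKA1 do not cross 0, and the ticks of PYGM and GBE1 lie on both sides of it.

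On the breakdown side, PYGM, the enzyme that releases glucose units, had group means that differed by less than the spread between seals. Pre-molt levels were 8793 CPM in seal 5572, 7743 in 5842, 5933 in 6762 and 4845 in C497, and post-molt levels were 6998 CPM in 4448, 7203 in 5572, 7265 in 9678 and 5027 in X410. The post-molt range lay inside the pre-molt range. Means were 6829 ± 1773 and 6623 ± 1070 CPM (log2 fold change -0.04 ± 0.23, adjusted p = 0.972). The sign turned when pre-molt 5572 (0.10), pre-molt 5842 (0.05) or post-molt X410 (0.07) was left out.

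The subunits of phosphorylase kinase did not share 1 direction. PHKA1, the alpha subunit of muscle that restrains the catalytic subunit until it is phosphorylated, was at 224 CPM in pre-molt 5572, 204 in 5842, 244 in 6762 and 316 in C497. Post-molt it was at 180 CPM in 4448, 186 in 5572, 177 in 9678 and 161 in X410, below all pre-molt libraries. The means were 247 ± 48.9 and 176 ± 10.7 CPM, with a log2 fold change of -0.49 ± 0.19 (edgeR adjusted p = 0.312, DESeq2 adjusted p = 0.0771), and without C497 it was -0.35 (edgeR adjusted p = 0.536).

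PHKB, the beta subunit, which is likewise regulatory, ranged from 136 to 220 CPM pre-molt and from 196 to 286 CPM post-molt. Post-molt 9678 was the highest library, and pre-molt 5842 and 6762 lay within the post-molt range. The log2 fold change was 0.37 ± 0.22 (adjusted p = 0.606, 95% interval -0.12 to 0.85). PHKG1, the catalytic gamma subunit of muscle, was at 59.0 to 92.4 CPM pre-molt and 79.5 to 103 CPM post-molt. Pre-molt 5572 lay inside the post-molt range and the other 3 pre-molt libraries below it, and the log2 fold change was 0.30 ± 0.19 (adjusted p = 0.631, 95% interval -0.12 to 0.72).

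A ratio of 2 genes within a library needs no scaling between libraries, and 4 such ratios of read counts were compared by an exact two-sided permutation test over the 70 divisions of the libraries, whose smallest possible p is 0.0286. The pairs of genes, like the genes themselves, were picked with results of these data known, so these p values describe the libraries and are not independent evidence. The denominators GYS1 and PHKA1 did not overlap between groups by themselves, so the ratios partly restate those genes. How often ratios of other gene pairs lack overlap was not counted. There were 10.1 to 14.8 PYGM reads for each GYS1 read pre-molt and 6.92 to 9.86 post-molt. This ratio of reads of 1 gene pair was thus lower in all 4 post-molt libraries (fold 0.678, exact permutation p = 0.0286, adjusted over the 4 ratios 0.0571). PYGM alone had a log2 fold change of -0.04 and GYS1 one of 0.52. PHKG1 reads per PHKA1 read were 0.234 to 0.412 pre-molt and 0.449 to 0.571 post-molt, again without overlap (fold 1.72, exact permutation p = 0.0286, adjusted 0.0571). PHKB reads per PHKA1 read were 0.431 to 1.08 pre-molt and 1.05 to 1.62 post-molt, with pre-molt 5842 inside the post-molt range (fold 1.81, exact permutation p = 0.0571, adjusted 0.0762). For GBE1 against GYS1 the ratio was 0.0223 to 0.118 pre-molt and 0.0219 to 0.0388 post-molt (fold 0.693, exact permutation p = 0.429, adjusted 0.429). No ratio passed 0.05 after adjustment. Without pre-molt 5842, the first 3 ratios named had adjusted p = 0.0381, and without any other single library none of them passed (adjusted p from 0.0571 to 0.114). In seal 5572 the PYGM to GYS1 ratio differed by -0.41 log2 units between biopsies, the PHKG1 to PHKA1 ratio by 0.39 and the PHKB to PHKA1 ratio by 0.76.

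**Figure D3:**
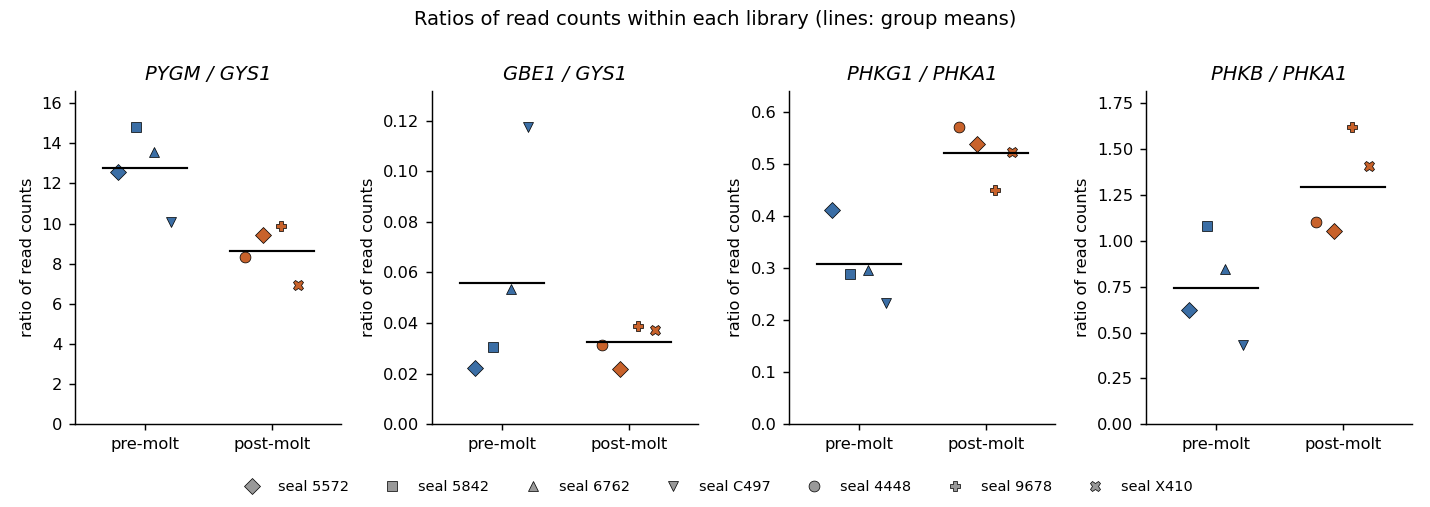
Ratio of read counts of 2 genes within each library (vertical axes from 0) for 4 pre-molt (blue) and 4 post-molt (orange) libraries, with symbols for seals and lines for group means. PYGM over GYS1 and PHKG1 over PHKA1 do not overlap between groups, and C497 sets the pre-molt range of GBE1 over GYS1.

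Several of these enzymes have other isoforms or related genes, some made mainly in liver or brain, and the reads fell mostly on the genes examined here. PYGM took 99.5 to 99.8% of the reads of PYGM, PYGL (liver) and PYGB (brain) pre-molt and 99.7 to 99.9% post-molt. No read of the liver synthase GYS2 was counted in any library, which allows a share of up to 0.0180% of GYS1 and GYS2 reads in the library with the fewest. GYG1 took 98.3 to 99.2% of glycogenin reads pre-molt and 98.5% or more post-molt, the rest being GYG2. PGM1 took 91.0 to 97.5% pre-molt and 93.6 to 96.8% post-molt of reads of PGM1 and the related genes PGM2 and PGM5. PGM2L1 was left out of this share. Wilson 95% intervals of these shares were at most 0.63 percentage points wide in a single library, and both intervals and limits cover counting error only. Read shares are not divided by transcript length.

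Phosphorylase kinase was more mixed. PHKA1 took 67.2 to 86.3% of the alpha-subunit reads pre-molt and 68.7 to 76.1% post-molt, the rest falling on PHKA2, the liver form. PHKG1 took 74.3 to 83.3% of gamma-subunit reads pre-molt and 80.0 to 89.6% post-molt, with PHKG2 taking the rest. The shares overlapped between groups in both cases, and their Wilson intervals were at most 3.4 points wide. PHKA2 was highest in pre-molt C497 (154 CPM, against 32.5 to 67.7 in the other 3), the library that was also highest in PHKA1 and GBE1, and its log2 fold change was -0.21 ± 0.37 (adjusted p = 0.912), or 0.33 without C497. PHKG2 had a log2 fold change of -0.37 ± 0.33 (adjusted p = 0.765), PYGL of -0.35 ± 0.29 (0.742), PYGB of -0.40 ± 0.41 (0.812) and PGM5 of -0.32 ± 0.26 (0.744).

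Of 14 listed isoforms and other genes of glycogen metabolism, not all of them enzymes, 13 were tested and edgeR and DESeq2 each called 0. Before adjustment, 1 was higher and 0 were lower in edgeR at p under 0.05 (5.20% and 6.22% of all genes tested). That 1 was GAA, the lysosomal enzyme that digests glycogen, at 90.7 to 162 CPM pre-molt and 146 to 217 CPM post-molt (0.52 ± 0.22, adjusted p = 0.368). EPM2A, the glycogen phosphatase laforin, had a log2 fold change of 0.49 ± 0.26 (adjusted p = 0.546). The median log2 fold change of the 13 genes was -0.28.

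Glycogen synthase and phosphorylase are switched by phosphorylation, and genes for the proteins that control it included 3 that passed the test. Of 17 genes listed for phosphatase and kinase control, all were tested, and the median log2 fold change was 0.07. EdgeR called 1 higher and 2 lower, against 0.349% of all genes tested in either direction. DESeq2 called 2 higher and 2 lower, against 3.35% and 3.16% of the genes to which it gave an adjusted p. Before adjustment edgeR had 4 higher and 2 lower at p under 0.05 (5.20% and 6.22% of all genes tested). All post-molt libraries lay above all pre-molt ones in 4 genes and below them in 2 (4.05% and 5.11%). PPP1R3C, which brings protein phosphatase 1 to glycogen, was at 6.33 to 27.1 CPM pre-molt and 102 to 199 CPM post-molt (3.22 ± 0.38, adjusted p = 0.00589), and its relative PPP1R3G at 14.0 to 25.9 and 1.71 to 6.44 CPM (-2.27 ± 0.40, adjusted p = 0.0393). PPP1R1A, which codes for inhibitor 1 of protein phosphatase 1, had means of 422 CPM pre-molt and 153 CPM post-molt. It was at 543 CPM in pre-molt 5572, 537 in 5842, 375 in 6762 and 234 in C497, and at 132 CPM in post-molt 4448, 178 in 5572, 139 in 9678 and 163 in X410, with no overlap (-1.46 ± 0.26, adjusted p = 0.0419). PPP1R2, which codes for inhibitor 2, went the other way and was the other gene that DESeq2 called higher. It was at 45.4 to 71.0 CPM pre-molt and 84.3 to 115 CPM post-molt (0.91 ± 0.20, edgeR adjusted p = 0.0679, DESeq2 adjusted p = 0.000595). Of the 8 fits that lacked 1 library, PPP1R3C passed in 8, PPP1R3G in 2 and PPP1R1A in 1. Without both pre-molt 5842 and post-molt 9678 PPP1R3C had adjusted p = 0.0606.

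Upstream of glycogen, 9 genes were listed for glucose entry and glucose 6-phosphate and 8 were tested. EdgeR and DESeq2 called 0 of them. Before adjustment edgeR had 1 higher and 0 lower at p under 0.05 (5.20% and 6.22% of all genes tested). The 1 was the insulin-responsive glucose transporter SLC2A4, at 25.8 to 72.0 CPM pre-molt and 55.4 to 133 CPM post-molt (0.88 ± 0.32, adjusted p = 0.290). The isomerase GPI had a log2 fold change of -0.47 ± 0.25 (adjusted p = 0.529) and the glucose 6-phosphatase gene G6PC3 one of -0.36 ± 0.26 (adjusted p = 0.677). The median over the 8 genes was -0.21.

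**Figure D4:**
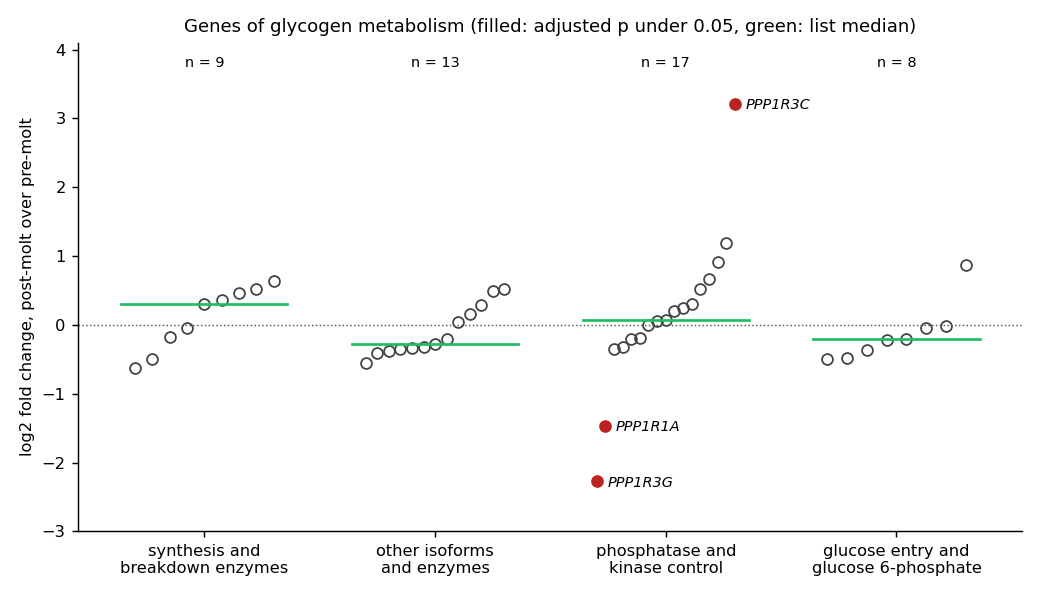
Log2 fold change (post-molt over pre-molt, vertical axis) of tested genes in 4 lists of glycogen metabolism; filled red points passed an edgeR adjusted p under 0.05 and green lines are list medians. The 9 enzymes lie between -0.63 and 0.64, and PPP1R3C (3.22), PPP1R1A (-1.46) and PPP1R3G (-2.27) in the control list are the points that passed.

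Markers of muscle and of other cells were read beside these levels, as fast and slow fibers and other cells differ in how much glycogen enzyme they make. All 8 skeletal muscle markers were present, and their summed level was 174568 to 279654 CPM pre-molt and 164495 to 234381 CPM post-molt (median log2 fold change -0.43). EdgeR called 0 of them, with 2 higher and 3 lower before adjustment, and DESeq2 called 2 higher and 1 lower. For this and the following marker lists, edgeR called 0.349% of all genes tested. Before adjustment, 5.20% of all genes tested were higher and 6.22% lower. Of the genes to which it gave an adjusted p, DESeq2 called 3.35% higher and 3.16% lower. The marker lists were not tested against these shares. ACTA1, skeletal muscle actin, was at 61066 to 108249 CPM pre-molt and 35014 to 58123 CPM post-molt, without overlap. MYOT, the Z-disc protein myotilin, was at 191 to 662 and 842 to 1233 CPM, again without overlap. Among all genes tested, 4.05% lay above and 5.11% below without overlap in the post-molt libraries. The 8 matched of 11 fast-fiber markers summed to 8239 to 23427 CPM pre-molt and 4583 to 6961 CPM post-molt. Their log2 fold changes had a median of -1.72. The unmatched ones were the fast myosin heavy chain genes MYH1, MYH2 and MYH4, which had no entry under these symbols. The sums did not overlap, but each of the 8 markers did. EdgeR called 0 of these, DESeq2 called 1 lower (MYBPC2), and 4 were lower before adjustment. The fast markers were not lower post-molt in every comparison of seals. TNNI2, fast troponin I, was at 2471 CPM in pre-molt 5842 and 1346 in C497, but at 6.28 in 5572 and 5.61 in 6762, below the 28.9 to 219 CPM of the post-molt libraries. TNNT3 and MYLPF were likewise above all post-molt libraries in 5842 and C497 and below all of them in 5572 and 6762. ACTN3, which made up much of the sum, was at 3654 to 7642 CPM pre-molt and 3453 to 4453 CPM post-molt. In seal 5572 TNNI2 was 5.11 log2 units higher post-molt, and ACTN3 differed by -1.07. The 8 matched of 9 slow-fiber markers (MYH7 had no entry) summed to 44691 to 96582 and 54540 to 77596 CPM (median -0.12). EdgeR and DESeq2 called 1 of them higher, the calcium pump gene ATP2A2 (log2 fold change 1.09 ± 0.20, adjusted p = 0.0419 in edgeR). Fibroblast markers summed to 413 to 1355 and 169 to 443 CPM (6 of 6 tested, median -1.46), adipocyte markers to 54.2 to 189 and 28.6 to 94.2 CPM (4 of 5 tested, median -1.17), endothelial markers to 356 to 476 and 320.0 to 368 CPM (median -0.24), and smooth muscle markers to 31.4 to 123 and 27.1 to 143 CPM (median -0.02). EdgeR called 0 markers in these 4 lists, with 4 fibroblast, 1 adipocyte and 1 endothelial marker lower before adjustment and 2, 1 and 1 of them called by DESeq2. Among blood markers (6.28 to 36.1 and 11.9 to 42.9 CPM, median 0.76) SLC4A1 was at 0, and among liver markers (7.31 to 13.7 and 9.29 to 24.3 CPM, median 0.70) TTR and FGB were at 0. EdgeR called 0 blood or liver markers, with 1 liver marker higher before adjustment and called by DESeq2. TTN, whose transcript is very long, was at 28797, 21837 and 16475 CPM in pre-molt 5842, 6762 and C497 but 1152 in 5572, and at 2663, 1630 and 4194 CPM in post-molt 4448, 5572 and X410 but 25277 in 9678. It was thus high in 3 of 4 pre-molt and 1 of 4 post-molt libraries (log2 fold change -1.02 ± 0.88, adjusted p = 0.764). The part of fiber type, other cells or transcript coverage in the levels of the glycogen genes was not tested.

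Of 12326 other named genes tested, those whose log2 CPM followed GYS1 most closely over the 8 libraries were USF2 (Pearson r = 0.993), MBD3 (0.981) and SV2B (0.970), and those closest to PYGM were ASPSCR1 (0.928), PTK7 (0.915) and SARDH (0.912). These correlations describe 8 libraries that share depth, scaling and, for 2 of them, a seal.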

How the data were processed

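Poly-A RNA of 8 libraries from 7 seals was sequenced with paired 50-base reads. Per the labels and the study's methods, the authors used bcl2fastq 2.20 for base calls and STAR for alignment, with the genome of a related species, the Hawaiian monk seal, as reference. They deposited the raw read counts per gene that STAR gives. The strand setting is not given in the sources used here, and genes that overlap on opposite strands may share reads. The labels and the methods name different library kits.

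Of the entries, 11 carry no gene name (0.0173 to 0.0259% of counts of a library) and were left out. Genes were kept with filterByExpr (minimum count 10, minimum total 15), libraries scaled with TMM, and groups compared over all genes with the edgeR 4.0.16 quasi-likelihood test in R 4.3.3 with Benjamini-Hochberg adjustment at 0.05. SE and 95% intervals were derived from the fit. DESeq2 1.42.0, limma-voom (limma 3.58.1), other scaling, no filter and left-out libraries were alternatives. The fit was run on simulated counts with fold changes set in advance, drawn independently for each library with the spread estimated from these data. The simulation had no shared seal and no difference in RNA quality. It checks the code and not how well the model suits these libraries. In a chi-square test of counts between each of 28 pairs of libraries, the ratio of chi-square to degrees of freedom was at least 107.3, so none was a copy.

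The members and lists were chosen with earlier results of these data known. Glycogen genes named were the 9 enzymes, their isoforms and related genes, and, in each of the 3 other glycogen lists, genes past the threshold and the 3 with the smallest p. PPP1R2 was also named, as the other control gene that DESeq2 called higher, and so were the 3 genes most like PYGM and GYS1. Marker genes were named after their values were seen. Sequences were not used here. The values of 1 listed gene are not reported here.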

Additional observations from a re-analysis of the deposited data

Results flagged for a closer look

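In 26 checks of a group of 4 libraries (9 genes and 4 ratios in each group), 2 had 1 library far from the other 3. PGM1 in pre-molt C497 was at 919 CPM, where the gap to the next library made up 0.888 of the range of the group, and PYGM in post-molt X410 was at 5027 CPM, with a gap of 0.881 of the range. Chance flags about 1 in 20 such groups.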

How the results depend on the processing

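With 16 alternatives for each of 9 genes, 137 of 144 values kept the direction and the side of the threshold. None of the 9 passed in the main fit, and fits with fewer libraries have less power. Staying on that side of the threshold therefore says little, and the count speaks mainly to direction. GYG1 passed in DESeq2 (log2 fold change 0.64, adjusted p = 0.0305), so that the number of the 9 genes called went from 0 to 1, and edgeR and limma-voom called 0 in every setting run. With all 8 libraries, 5 of the 9 had an unadjusted p under 0.05 in each of these tools. PYGM changed sign in 5 settings (-0.18 to 0.10 with 1 library left out, 0.058 without both libraries of seal 5572, 0.00319 without pre-molt 5842 and post-molt 9678) and GBE1 in 1 (-0.37 to 0.43 with 1 library left out). PHKA2 ran from -0.45 to 0.33 with 1 library left out, and PYGB was 0.0993 without pre-molt 5842 and post-molt 9678. Adjusted p ranged from 0.0305 to 0.544 for GYG1 and from 0.0538 to 0.562 for GYS1.

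The number of all genes called was 50 in edgeR, 651 in DESeq2, 94 in limma-voom, 225 with no filter on low counts, 9 to 48 with 1 library left out, 5 without both libraries of seal 5572, and 0 in edgeR without pre-molt 5842 and post-molt 9678 (1330 at an unadjusted p under 0.05; no other tool was run there). With 1 library left out, the difference in log2 ratio was -0.67 to -0.46 for PYGM to GYS1, 0.66 to 0.93 for PHKG1 to PHKA1 and 0.62 to 1.06 for PHKB to PHKA1. With 3 libraries per group the exact test of the ratios cannot reach 0.05. No scaling moved the median of all genes by over 0.1 log2 units. Shares per transcript length were not run, because no lengths of transcripts were given. The cause of these shifts was not tested. No paired analysis was possible because the groups have 1 seal in common (5572) and the labels pair no others.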
